A study of Mus musculus with 2 samples.

Results

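Trabecular-like ventricular cardiomyocytes were studied in whole mouse hearts at E11.5 (embryonic day), in 1 single-cell RNA library of control embryos and 1 library of embryos with an endocardial deletion of Hand2 (H2CKO). They were chosen from measured values. A cell belonged to the set when it was among the cells for which the authors deposited embedding coordinates, and when Tnnt2, Myh6, Myh7, Actc1 and Myl7 together held at least 2% of its UMIs. It also needed at least 1000 CPM of Myl2 (UMIs per 1000000 UMIs of the cell), at least 1000 CPM of Nppb, Cited1 and Gja5 together, and fewer than 3 detected genes among the outflow genes Rspo3, Bmp4, Sema3c, Isl1 and Rgs5. The set held 1282 of 11640 embedding cells, with 497 in the control and 785 in H2CKO. The 3900 other Myl2-high cardiomyocytes, which met every term but had less than 1000 CPM of Nppb, Cited1 and Gja5, served for comparison (1217 control and 2683 H2CKO cells).

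Per the labels, control embryos had the genotype Hand2fx/+R26RmTmG/wt, which carries no Cre, and H2CKO embryos had Nfatc1Cre/wtHand2fx/fxR26RmTmG/wt. All embryos therefore carried at least 1 floxed Hand2 allele and 1 copy of the mTmG reporter, a membrane Tomato that Cre switches to membrane GFP. Nfatc1-Cre is known as a driver for the endocardium; whether it acted in any of the cardiomyocytes was not tested. How many embryos each library pooled, and of which sex, is not in the labels, and with 1 library a group no difference below has a replicate check or a test. The deletion, the Cre and the library cannot be told apart. All intervals are 95% intervals and cover counting error only.

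In the early ventricle, trabeculae are ridges of myocardium that grow inwards and are lined by endocardium, while the compact wall lies outside them. Trabecular cardiomyocytes make the natriuretic peptides encoded by Nppa and Nppb, the gap junction protein connexin 40 (Gja5) and the growth factor BMP10, divide less than compact cells, and give rise to the ventricular conduction system. Their growth depends on signals from the endocardium, among them neuregulin acting on ERBB2 and ERBB4 in the cardiomyocyte, and Notch signalling in the endocardium itself. Compact cardiomyocytes express Hey2 and Mycn.

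Nppa and Bmp10 are trabecular genes that the rule did not use, and both were past 2-fold between the genotypes, so the 250 bases before their start sites are shown (RefSeq, GRCm38.p6, both on the plus strand, Nppa at chr4:148000472-148000721 and Bmp10 at chr6:87428744-87428993). Capitals mark the letters GATAA (GATA factors), AAGTG (NK homeobox factors) and TCACAC (T-box factors), searched on both strands; TTATC is GATAA on the minus strand, and no matches overlap.
Nppa: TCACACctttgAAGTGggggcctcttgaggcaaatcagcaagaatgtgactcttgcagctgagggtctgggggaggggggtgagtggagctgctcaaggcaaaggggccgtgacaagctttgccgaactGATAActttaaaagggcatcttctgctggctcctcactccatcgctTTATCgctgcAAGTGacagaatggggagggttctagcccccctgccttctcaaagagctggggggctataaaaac
Bmp10: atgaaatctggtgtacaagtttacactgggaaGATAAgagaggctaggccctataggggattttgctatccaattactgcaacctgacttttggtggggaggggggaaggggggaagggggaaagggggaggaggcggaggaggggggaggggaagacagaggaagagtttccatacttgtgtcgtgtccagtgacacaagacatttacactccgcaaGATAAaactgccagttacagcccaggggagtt
Nppa holds 2 matches to GATAA, 2 to AAGTG and 1 to TCACAC, and Bmp10 holds 2 to GATAA and none to the other pair. Among 32851 RefSeq promoter windows of the same length, 22.6% held GATAA, 40.7% AAGTG and 12.3% TCACAC on either strand. Neither window held CATTCC (TEAD factors), TGACTCA (AP-1) or CACGTG (an E-box), which occurred in 12.6%, 4.46% and 6.02% of windows. These are matches of letters, not measured sites.

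The cells carried the markers of ventricular trabecular myocardium that the rule required and Nppa, which it did not. Summed over the cells of a library, Nppa stood at 2207 (2183 to 2232) CPM in the control and 8280.0 (8239 to 8321) in H2CKO, and a UMI was found in 90.3% and 97.1% of cells. The atrial gene Sln, which encodes sarcolipin, had 0.288 and 0.689 CPM. Of the 3 genes in the trabecular term, Nppb stood at 1327 and 1135, Cited1, a transcriptional co-regulator, at 799 and 1154, and Gja5 at 48.9 and 36.2. These values chose the cells and are given as a description. Between 900 and 1000 CPM on the sum of the 3 genes lay 62 control and 84 H2CKO cells, with Nppa at 1454 and 1771. Between 1000 and 1100 lay 43 and 60 cells, with Nppa at 1179 and 1579. Across the same edge, from below to above, Slit2 had 3.87 and 14.8 in the control and 3.37 and 1.95 in H2CKO, and Bmp10 21.0 and 10.5 in the control and 8.996 and 16.9 in H2CKO. The cells were cut from a per-cell score, so they are a range of it and not a type.

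The median cell had 25396 UMIs and 4775 genes in the control and 21534 UMIs and 4151 genes in H2CKO. The embedding held cells with at least 2501 genes in the control and 2002 in H2CKO. Mitochondrial transcripts made up 4.92% and 8.13% of the UMIs of trabecular-like cells and 4.86% and 7.34% in the other Myl2-high cells. With mitochondrial UMIs out of the totals, the genotype comparison below gave log2 ratios of 1.95 for Nppa and 1.06 for Bmp10, with 21 genes higher and 27 lower. In cells with at most 10% mitochondrial UMIs it gave 1.83 for Nppa and 0.99 for Bmp10, just short of 2-fold, with 18 genes higher and 34 lower. Both alternatives were chosen after seeing the data. No barcode was shared between the trabecular-like cells of the 2 libraries, 2 between their other Myl2-high cells and 15 between all embedding cells. Hand2 stood at 57.3 (53.4 to 61.4) CPM in control and 57.3 (53.9 to 60.8) in H2CKO trabecular-like cells. The GFP reporter had 8.94 and 12.2 CPM in these cells, and Tomato 15.2 and 3.29. In the other Myl2-high cells GFP had 10.5 and 19.9 and Tomato 17.5 and 5.06, so both reporters differed between the libraries in cardiomyocytes, and their source was not tested.

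Trabecular-like cells were 29.0% of Myl2-high cardiomyocytes in the control (26.9 to 31.2, 497 of 1714 cells) and 22.6% in H2CKO (21.3 to 24.1, 785 of 3468). The difference was −6.36 percentage points (Newcombe interval −8.94 to −3.83). Of all embedding cells, however, they were 9.19% in the control (8.43 to 9.99) and 12.6% in H2CKO (11.8 to 13.4), so the direction depends on what they are counted against. Among all cells that passed the cardiomyocyte term they were 21.5% (19.8 to 23.2) and 20.2% (18.9 to 21.5), and these intervals overlap. With the trabecular term at 2000 CPM, the shares of Myl2-high cells were 11.3% and 9.49%.

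Within each library, trabecular-like cells were first set against the other Myl2-high cardiomyocytes. The rule divided these cells by Nppb, Cited1 and Gja5, so the comparison describes what goes with those genes and tests nothing. Genes were counted when the higher of the groups compared had at least 20 UMIs and 20 CPM. A gene is called past 2-fold when its log2 ratio, taken with 5 CPM added to both values, reached 1 or −1. Leaving out the 14 genes of the rule, 7 of 5560 counted genes were past 2-fold higher in trabecular-like cells of the control (0.126%) and 10 were lower (0.18%), together 0.306%. In H2CKO, 17 of 5181 were higher (0.328%) and 13 were lower (0.251%), together 0.579%. In both libraries at once, 5 of 4966 genes were higher (0.101%) and 6 were lower (0.121%).

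Nppa, which encodes atrial natriuretic peptide, stood furthest apart. In the control it was 2207 CPM in trabecular-like and 402 in other Myl2-high cells, a log2 ratio of 2.44, and in H2CKO it was 8280.0 against 600.4, a log2 ratio of 3.77. Mest, an imprinted gene that encodes a hydrolase-like enzyme, stood at 1739 against 613 in the control and 1742 against 365 in H2CKO (log2 ratios 1.50 and 2.24). Slit2, a secreted guidance ligand, had log2 ratios of 1.41 and 1.81, from 22.6 against 5.39 and 23.0 against 2.97 CPM. The other genes higher in both libraries were Wdr93, a WD repeat gene (log2 ratios 1.33 and 1.52), and Slc6a6, the taurine transporter (1.11 and 1.30). Bmp10 was counted in H2CKO, at 39.9 against 5.87 (log2 ratio 2.05), and had 17.3 against 4.75 in the control (1.19), where it stayed under the 20 CPM needed.

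Other genes higher in both libraries fell short of 2-fold in at least 1 of them. Hand1, a transcription factor of the left ventricle and outer curvature, had 113 against 55.9 CPM in the control (log2 ratio 0.95) and 91.2 against 33.9 in H2CKO (1.31). Gja1, the gap junction gene for connexin 43, had log2 ratios of 0.90 and 1.06, and Kcnk3, a background potassium channel, 0.87 and 1.54. Ears2, a mitochondrial glutamyl-tRNA synthetase, had 1.21 and 0.89, and Tnfrsf12a, a receptor of the tumour necrosis factor family, 0.96 and 0.86. Igfbpl1 had 0.69 and 0.78, and Klhdc10 0.68 and 0.86. Tbx5, a T-box factor of the left ventricle and atria, pointed the same way with 0.48 and 0.77.

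On the lower side were Col2a1, a fibrillar collagen, with 29.1 against 112 CPM in the control and 38.1 against 137 in H2CKO (log2 ratios −1.79 and −1.72). Cox4i2, an isoform of a cytochrome oxidase subunit, had log2 ratios of −1.87 and −1.61, and Igfbp5, a binding protein of insulin-like growth factors, −1.74 and −1.43. Slitrk5, a transmembrane protein with leucine-rich repeats, had −1.28 and −1.13. Id2, an inhibitor of basic helix-loop-helix factors and a target of BMP signalling, had 110.4 against 285 in the control and 134 against 289 in H2CKO (−1.33 and −1.08). Bmp2, a BMP ligand of the atrioventricular canal, was at 2.88 against 21.5 in the control, a log2 ratio of −1.75, and at 4.19 against 16.3 in H2CKO, too low to be counted there. The rule capped the number of outflow genes in both sets of cells but did not use Bmp2, Id2 or Igfbp5. Lower by less than 2-fold in both libraries were the matrix genes Ltbp1 (−0.86 and −0.89) and Loxl2 (−0.77 and −0.75), the LIM domain gene Fhl2 (−0.75 and −0.78) and the homeobox gene Meis2 (−0.72 and −0.82). Ntm, a cell adhesion gene, had −1.27 and −0.74. Kcne1, a potassium channel subunit placed among the trabecular genes, was lower in trabecular-like cells, with −0.82 and −1.05.

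**Figure D1:**
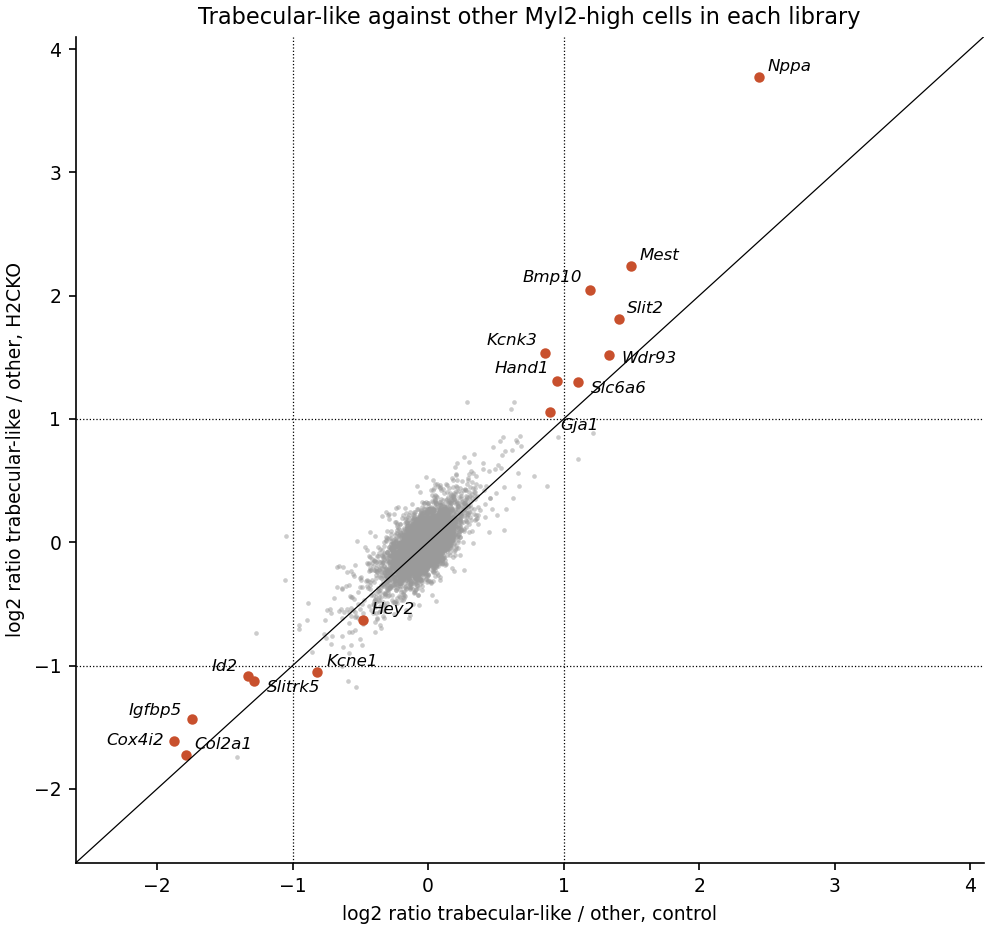
Each grey point is 1 of the 4966 genes counted in both libraries, genes of the rule left out, with the log2 ratio of trabecular-like to other Myl2-high cells in the control (x axis) and in H2CKO (y axis); dotted lines mark 2-fold, the solid line equal ratios, and orange-red points are the named genes, drawn even where not counted (Bmp10). Nppa (2.44 and 3.77), Mest and Slit2 lie to the upper right and Col2a1, Cox4i2 and Igfbp5 to the lower left.

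Of 7 counted compact wall genes, 1 in the control and 3 in H2CKO had ratios above 0 in trabecular-like against other Myl2-high cells. Their median log2 ratio was −0.20 in the control and −0.20 in H2CKO, beside −0.03 and −0.03 over all counted genes, and none of the 7 was past 2-fold. Hey2 had 56.9 against 81.2 CPM in the control (−0.48) and 42.5 against 68.4 in H2CKO (−0.63). All 20 counted genes of G2 and M phase had ratios below 0 in both libraries, with medians of −0.25 and −0.16 and none past 2-fold. The proliferation marker Mki67 had 152 against 187 and 119.9 against 131, and Top2a, a topoisomerase of dividing cells, 315 against 381 and 259.5 against 297. Of the S phase genes 2 of 15 in the control and 1 of 15 in H2CKO had ratios above 0 (medians −0.13 and −0.20). Of 7 counted cell cycle arrest genes 3 had ratios above 0 in each library (medians −0.21 and −0.12); Cdkn1c, which encodes the cell cycle inhibitor p57, was among those above, at 1220.0 against 1002 and 1245 against 958. Glycolysis and hypoxia genes had medians of −0.18 and −0.31, with 1 of 21 and 1 of 20 above 0. Oxidative phosphorylation genes leaned the other way, with 26 of 29 and 24 of 30 above 0 and medians of 0.10 and 0.07; none was past 2-fold.

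Several of these genes followed the amount of Nppb, Cited1 and Gja5 on both sides of the threshold. Over 7 ranges of that sum, from under 125 to 4000 CPM and more, Nppa went from 47.4 to 5169.7 CPM in the control and from 129 to 25469.9 in H2CKO. Hey2 went from 84.7 to 36.0 in the control and from 62.0 to 17.3 in H2CKO. Mest went from 186 to 2545 and from 113 to 3034, and Id2 from 419 down to 18.8 and from 361 down to 61.5. Slit2 climbed mainly in the top ranges of H2CKO, with 6.81, 26.6 and 90.1 CPM in the 3 ranges of trabecular-like cells, against 16.7, 29.1 and 40.5 in the control. Hand1 peaked before the top range, at 134 between 2000 and 4000 and 96.0 above 4000 in the control and at 95.8 and 78.8 in H2CKO. The top range held 51 control and 98 H2CKO cells.

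**Figure D2:**
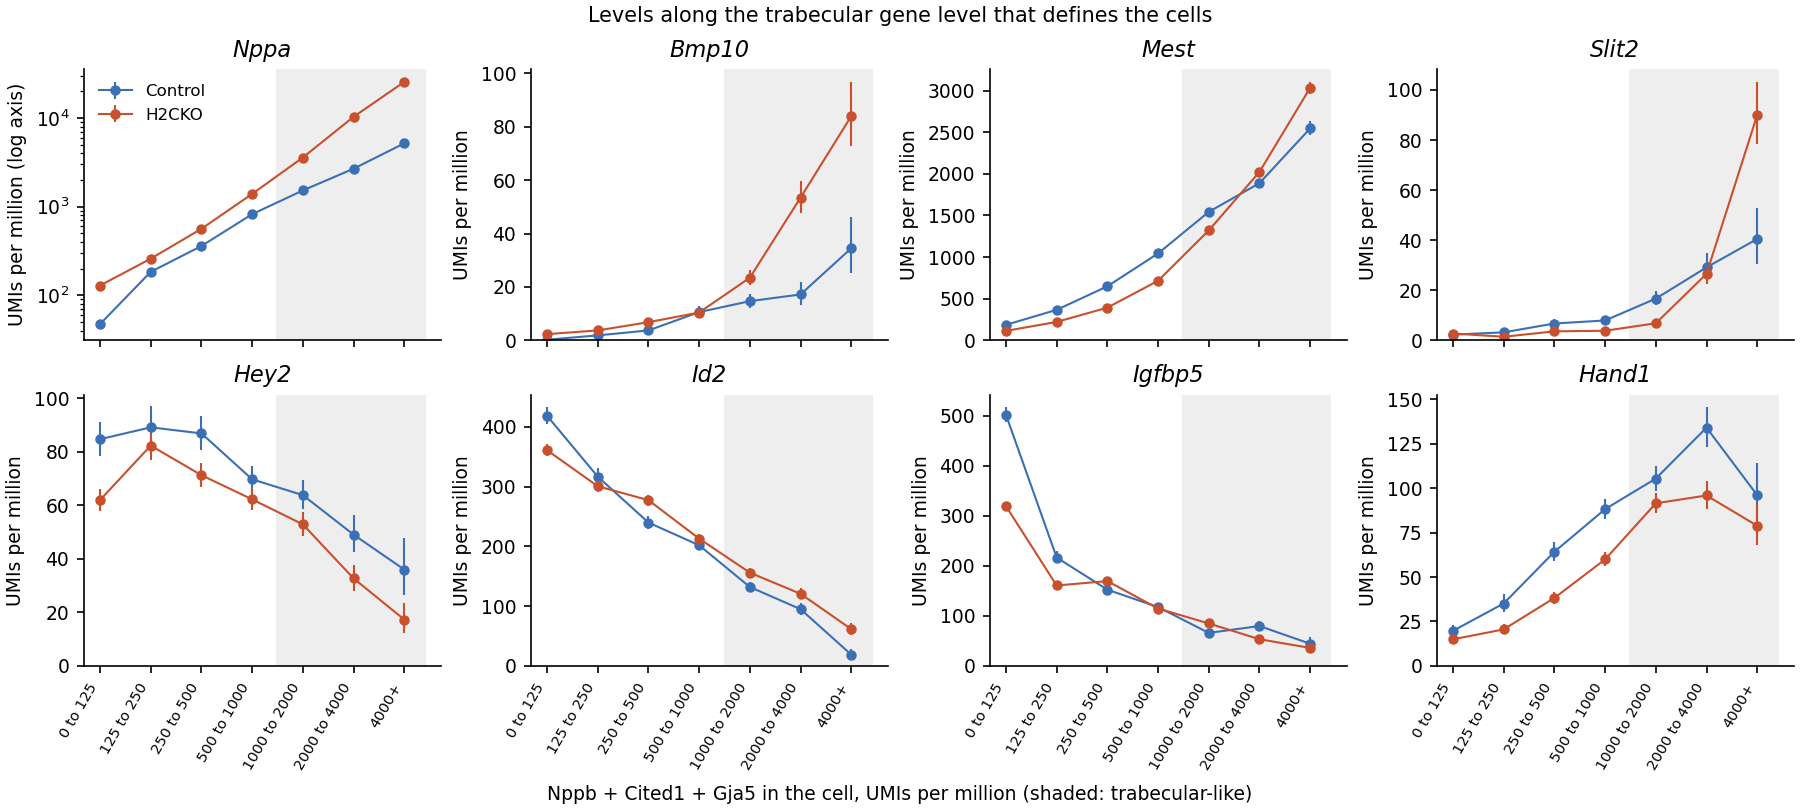
CPM of 8 genes (y axes, log scale for Nppa only) in Myl2-high cells summed by their level of Nppb, Cited1 and Gja5 together (x axis), for the control (blue) and H2CKO (orange-red) library; bars are 95% Poisson intervals and shading marks trabecular-like cells. Nppa, Bmp10, Mest and Slit2 end higher than they start, Hey2, Id2 and Igfbp5 end lower, and the H2CKO line for Nppa lies above the control line in every range.

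The trabecular term could be met in different ways. Cells with at least 1000 CPM of Nppb but not of Cited1 were 38.6% (34.3 to 43.1) of trabecular-like cells in the control and 26.2% (23.2 to 29.5) in H2CKO. Cells with that much Cited1 but not Nppb were 18.9% (15.6 to 22.6) and 35.8% (32.4 to 39.3), cells with both 10.1% (7.56 to 13.0) and 15.0% (12.6 to 17.7), and cells that reached 1000 only by the sum 32.4% (28.3 to 36.7) and 22.9% (20.03 to 26.0). Nppb and Cited1 chose the cells, so these shares describe the 2 libraries. Both kinds differed in Hand1, which in H2CKO stood at 30.0 CPM in Nppb-only and 125.4 in Cited1-only cells, against 99.1 and 141 in the control. Wdr93 (13.4 and 51.8), Gja5 (12.5 and 45.4) and Tbx5 (23.3 and 56.7) lay the same way in H2CKO, and Id2 the opposite way (217 and 93.6). Across all trabecular-like cells of H2CKO, Spearman's rho with Hand1 was 0.45 for Cited1 and −0.35 for Nppb, and in the control 0.23 and −0.09. The cells of a library share its preparation, and the rule itself sets Nppb against Cited1. Over all Myl2-high cells, which the trabecular term does not select, rho of Nppb with Hand1 was above 0, at 0.08 in H2CKO and 0.25 in the control. That of Cited1 with Hand1 was 0.57 and 0.51. Cells with both genes had the most Nppa, at 4492 in the control and 22494 in H2CKO, and the most Slit2, at 59.3 and 68.4. They also had the least Hey2, at 25.3 and 20.1. With at least 1000 CPM of each gene, these cells lie high on the sum of Nppb, Cited1 and Gja5 by construction. Along that sum Nppa and Slit2 ended higher and Hey2 ended lower, so these rankings cannot be told apart from the sum. Whether they hold among cells with an equal sum was not tested.

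The comparison of H2CKO with control asks which transcripts of trabecular-like cells differ when Hand2 is deleted with an endocardial Cre. Of 5505 counted genes, 19 were past 2-fold higher in H2CKO (0.345%) and 33 were lower (0.599%), with a median log2 ratio of −0.15 over all counted genes. Centred on that median, 33 genes were higher and 16 lower, so the share of higher genes among those past 2-fold moved from 36.5% to 67.3%. In the other Myl2-high cells of the same libraries, 15 of 5662 genes were higher (0.265%) and 46 lower (0.812%), with a median of −0.17. Log2 ratios went down with a gene's span in the genome, with Spearman's rho over genes of −0.40 in trabecular-like and −0.49 in other Myl2-high cells.

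Nppa (chr4:148000722-148002079 on GRCm38) rose from 30617 UMIs in control to 156198 in H2CKO trabecular-like cells. This was 2207 (2183 to 2232) against 8280.0 (8239 to 8321) CPM, 3.75-fold (95% interval 3.71 to 3.80) and a log2 ratio of 1.90. In the other Myl2-high cells Nppa was 402 and 600.4, a log2 ratio of 0.57. The median trabecular-like cell had 1147 CPM of Nppa in the control and 3439 in H2CKO, and the 90th percentile was 6280.0 in the control and 20345. At least 5000 CPM were found in 16.1% of control cells (13.0 to 19.6) and 42.4% of H2CKO cells (38.9 to 46.0). The distributions overlapped: the 25th percentile in H2CKO was 684 and the 75th percentile in the control 3288. Along the ranges of Nppb, Cited1 and Gja5, Nppa in H2CKO and control stood at 3577 and 1523 CPM from 1000 to 2000, 10287 and 2676 from 2000 to 4000, and 25469.9 and 5169.7 above.

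Nppa UMIs were also found where the gene should be silent. In barcodes with at least 20% haemoglobin UMIs Nppa stood at 21.2 (19.97 to 22.4) CPM in the control and 67.4 (65.6 to 69.3) in H2CKO. A UMI was found in 30.7% and 59.0% of them, at median depths of 18769 and 13446 UMIs. The levels in trabecular-like cells lay far above these values in both libraries. The cap on cardiomyocyte genes left out barcodes with more myocardial RNA, so these values may understate free RNA.

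Bmp10 (chr6:87428994-87437677), a secreted factor that sustains trabecular growth, rose from 240 to 753 UMIs. This was 17.3 (15.2 to 19.6) against 39.9 (37.1 to 42.9) CPM, 2.31-fold (95% interval 1.99 to 2.68) and a log2 ratio of 1.01, just past the 2-fold line; it stayed past it in 13 of 18 alternatives. In the other Myl2-high cells it was 4.75 and 5.87 (0.16), under the level needed to be counted. A Bmp10 UMI was found in 28.6% of control and 42.5% of H2CKO trabecular-like cells, and in 6.64% and 16.7% after each cell was thinned to 5000 UMIs, which left out no cell. In the haemoglobin-rich barcodes Bmp10 stood at 0.230 and 0.107 CPM. Above 4000 CPM of Nppb, Cited1 and Gja5 it reached 34.5 in the control and 84.0 in H2CKO.

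Irx2 (chr13:72628820-72634198), of the Iroquois family of homeobox transcription factors, rose from 2.38 (1.64 to 3.34) to 21.8 (19.8 to 24.1) CPM in trabecular-like cells (log2 ratio 1.86) and stood at 2.36 and 12.8 in the other Myl2-high cells (1.27). Irx3 (chr8:91798525-91802067), known from the trabecular conduction system, had 3.97 (2.99 to 5.16) and 19.6 (17.7 to 21.7), a log2 ratio of 1.46, and fell just short of the 20 CPM needed to be counted. Its ratio in the other Myl2-high cells was 0.33, from 2.12 to 3.94. The rest of the family was looked at after these values were seen. Irx1 had 3.53 and 18.4 CPM, Irx5 1.44 and 15.6, and Irx4, a ventricular factor, 53.7 and 61.2. An Irx2 UMI was found in 4.63% of control and 26.9% of H2CKO trabecular-like cells (1.01% and 9.43% when thinned), against 0.0346% and 0.303% of haemoglobin-rich barcodes.

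**Figure D3:**
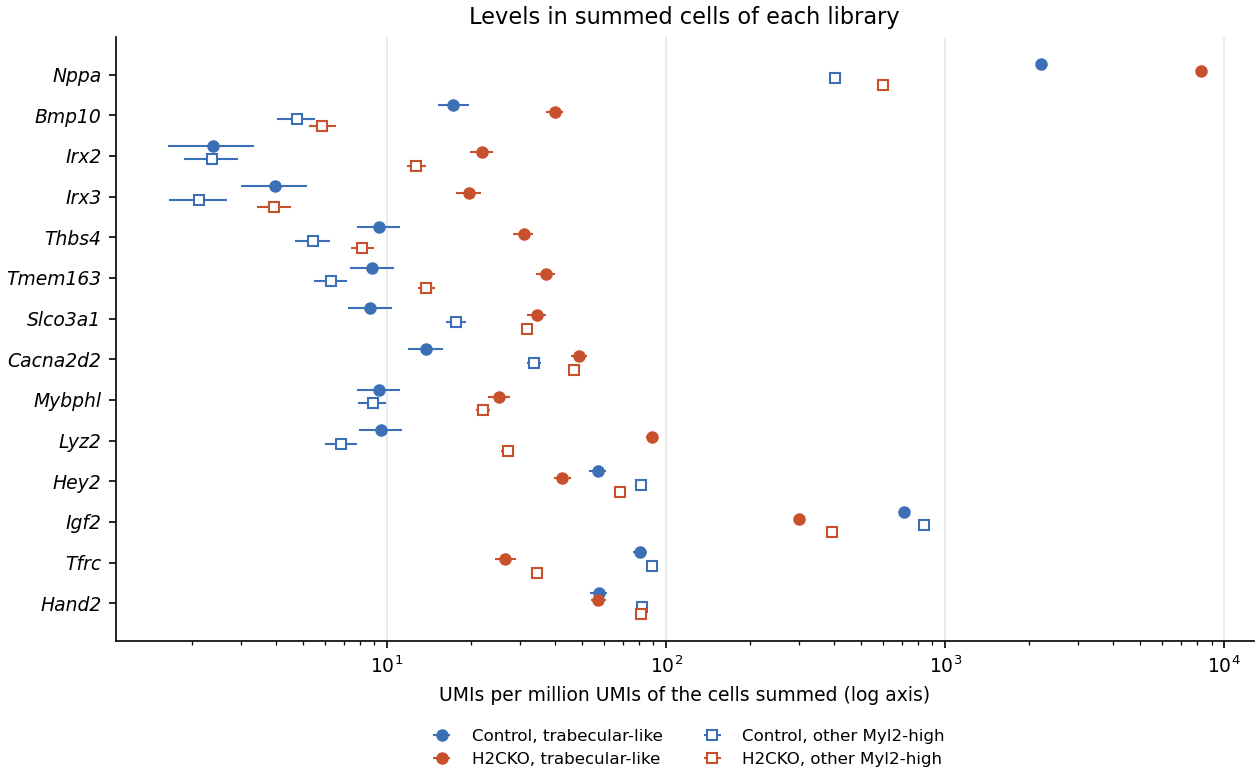
CPM on a log axis for 14 genes, one a row, in trabecular-like cells (filled circles) and other Myl2-high cardiomyocytes (open squares) of the control (blue) and H2CKO (orange-red) library, with 95% Poisson intervals. The filled circles lie far apart for Nppa, Irx2, Irx3, Tmem163, Cacna2d2 and Lyz2, while both circles for Hand2 fall at 57.3 and 57.3.

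Other genes among the 19 that rose are given singly, and membrane transport genes were not counted as a list. Of 27 counted sarcomere genes 1 was past 2-fold higher and of 20 calcium handling and channel genes none, beside 0.345% of all counted genes. Tmem163, a zinc transporter, went from 8.87 to 37.0 CPM (log2 ratio 1.60, against 0.74 in the other Myl2-high cells). Slco3a1, an organic anion transporter, went from 8.72 to 34.4 (1.52, against 0.70). Cacna2d2, an auxiliary subunit of calcium channels, went from 13.8 to 48.7 (1.52) and stood at 33.8 and 46.8 in the other cells (0.42), so the trabecular-like cells were lower than their neighbours in the control and close to them in H2CKO. Thbs4, a matrix glycoprotein, went from 9.37 to 30.9 (1.32, against 0.34), and along the range of Nppb, Cited1 and Gja5 it reached 22.5 in the control and 84.9 in H2CKO. Among muscle genes, Trim54, a ubiquitin ligase of the sarcomere, went from 8.36 to 25.9 (1.21, against 0.54). Mybphl, a myosin binding protein of atria and conduction cells, went from 9.37 to 25.2 (1.07, against 0.97). Myoz1, a Z-disc protein that calcineurin binds, went from 11.4 to 28.5 (1.03, against 1.13). Of these genes, Myoz1 was the one whose ratio was higher in the other Myl2-high cells.

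Lyz2 (chr10:117277331-117282321), lysozyme, a gene best known from macrophages, had the highest ratio. It rose from 132 to 1675 UMIs, or 9.52 (7.96 to 11.3) to 88.8 (84.6 to 93.1) CPM (log2 ratio 2.69), and went from 6.84 to 27.1 in the other Myl2-high cells (1.44). A Lyz2 UMI was found in 18.3% and 47.4% of trabecular-like cells (4.23% and 22.8% when thinned) and in 0.449% and 1.82% of haemoglobin-rich barcodes. The other white blood cell markers were at or near 0. Ptprc and C1qa had no UMI in trabecular-like cells of the control, Tyrobp 0 and 6 UMIs in the 2 libraries, Fcer1g 1 and 5, and Pf4 20 and 43. The 9 markers together stood at 11.3 and 91.9 CPM, most of it Lyz2.

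Further genes that rose were mitochondrial, metabolic or ribosomal, or globin. The mitochondrial transcripts mt-Nd3, mt-Nd2 and mt-Atp8 had log2 ratios of 1.73, 1.16 and 1.08, against 1.50, 1.01 and 1.08 in the other cells. Apoe, a lipid carrier, had 1.18 and 1.07, Alad, an enzyme of haem synthesis, 1.16 and 0.98, and the adult beta globin Hbb-bs 1.10 and 1.23. Rpl29, a ribosomal protein gene with many near-identical copies, had 1.81 and 1.88 and is uncertain, since how reads of such copies were counted is not given in the sources used here.

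Among the 33 genes that fell were growth factors, imprinted genes and the transferrin receptor. Igf2, the imprinted gene for insulin-like growth factor 2, fell from 711 (697 to 725) to 299 (291 to 307) CPM, a ratio of 0.420 (95% interval 0.407 to 0.434) and a log2 ratio of −1.24. In the other Myl2-high cells it was 838 and 394 (−1.08). Peg3, an imprinted zinc finger gene, fell from 329 to 151 (−1.10, against −1.42 in the other cells), and Tfrc, the transferrin receptor, from 80.8 to 26.6 (−1.44, against −1.25). Tgfb2, a growth factor of cushion formation, had 67.9 and 28.9 (−1.11, against −0.82), and Marcks, a substrate of protein kinase C, 130.5 and 55.8 (−1.16, against −0.79). Atf3, a stress-induced factor, fell from 107 to 48.03 (−1.08, against −0.62), and Timp3, an inhibitor of matrix proteases, from 82.7 to 38.3 (−1.02, against −0.72). Tpm4, a non-muscle tropomyosin, had 148 and 61.0 (−1.22, against −1.06). After the ratios were centred on their median, 16 of the 33 stayed past 2-fold and all 19 of the higher genes did.

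The lowest ratios belonged to predicted genes and genes with near-identical copies, and they are uncertain. Gm10260, a predicted ribosomal protein copy, had 5474 UMIs in the control and 9 in H2CKO (−6.19), and −6.18 in the other Myl2-high cells. Cwc22 (−2.62, against −2.62), Gm11361 (−2.59, against −2.42), Gm8797 (−2.52, against −2.39), Tpm3-rs7 (−2.33, against −2.21) and Eif3j2 (−2.30, against −2.09) followed. BC004004, a transcript with little annotation, had −1.75 and −1.78, the histone gene Hist1h2ae −1.58 and −1.37, and Rec114, a meiotic recombination gene, −1.56 and −1.29.

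The trabecular-like cells and the other Myl2-high cells come from the same 2 libraries, so their ratios are given side by side and their likeness is not a result. Of 5382 genes counted in both, 3 had ratios that differed by at least 2-fold (0.0557%), and all 3 were higher in trabecular-like cells. They were Nppa (a difference of log2 ratios of 1.33), Lyz2 (1.25) and Cacna2d2 (1.10). Next came Itga6, an integrin that binds laminin (0.85), and Slco3a1 (0.82). Lowest were the skeletal type troponin genes Tnni2 (−0.64, from ratios of 0.15 and 0.79) and Tnnt1 (−0.54, from 0.87 and 1.40), followed by the immediate early gene Ier2 (−0.53), the growth arrest gene Gadd45g (−0.49) and the growth factor midkine, Mdk (−0.47). The rule used Nppb, Cited1 and Gja5, which differ between the genotypes, so the cells compared need not lie at the same place along that range. With the same mix of ranges in both libraries, an alternative chosen after seeing the data, Nppa had a log2 ratio of 1.83 and Bmp10 0.97.

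**Figure D4:**
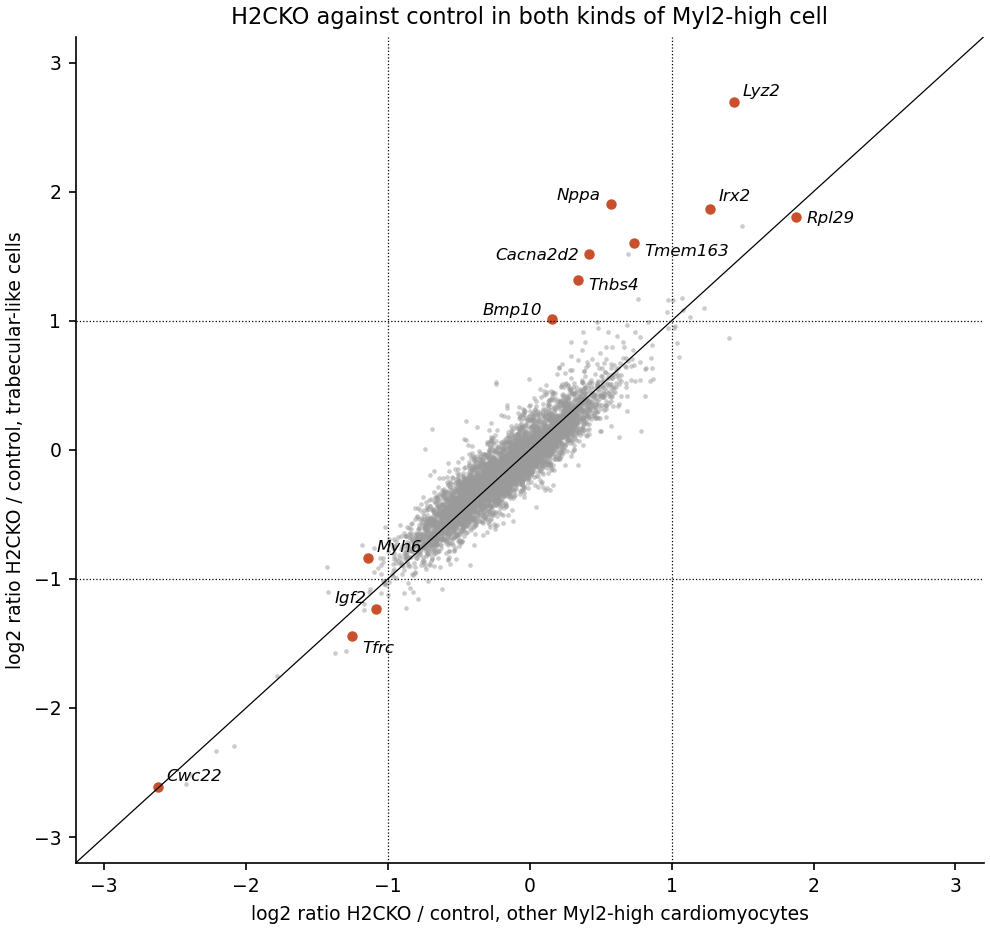
Each grey point is 1 of 5382 genes counted in both kinds of cell, with the log2 ratio of H2CKO to control in other Myl2-high cardiomyocytes (x axis) and in trabecular-like cells (y axis); dotted lines mark 2-fold, the solid line equal ratios, orange-red points the named genes, drawn even where not counted, and 1 gene (Gm10260) lies outside the axes. Nppa, Lyz2 and Cacna2d2 lie furthest above the solid line.

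The gene lists are described by their counts and medians. Of 9 counted trabecular genes outside the rule, 3 rose (Nppa, Bmp10 and Mybphl) and none fell, beside 0.345% higher and 0.599% lower over all 5505 counted genes, with a median log2 ratio of 0.48 beside −0.15 over all genes. Of 7 compact wall genes none was past 2-fold, 6 were below 0 and the median was −0.38; in the other Myl2-high cells 6 of 7 were also below 0, with a median of −0.42. Hey2 had 56.9 (53.0 to 61.0) and 42.5 (39.6 to 45.5) CPM (−0.38). The list of trabecular genes was written with results of these data known and is not independent evidence of its direction. Slit2, a trabecular gene that set these cells apart from their neighbours, had 22.6 and 23.0 (0.02), and Mest 1739 and 1742 (0.00), although Mest was 613 and 365 in the other Myl2-high cells (−0.74).

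Genes of neuregulin, ERBB, BMP10 and Notch signalling came from lists chosen with earlier results of these data known. Of 9 counted genes of neuregulin, ERBB and BMP10 signalling only Bmp10, counted through H2CKO alone, was past 2-fold (list median 0.06). Over all counted genes 0.345% were higher and 0.599% lower, with a median of −0.15. Erbb2, a co-receptor for neuregulin, had 30.8 (27.9 to 33.8) and 32.3 (29.8 to 35.0) CPM, and Erbb4, the receptor that binds it, 31.4 (28.6 to 34.5) and 19.0 (17.1 to 21.1), a log2 ratio of −0.60. The BMP target Id2 had 110.4 and 134 (0.27), and Id3 40.3 and 43.6 (0.10). None of 4 counted Notch pathway genes was past 2-fold (median −0.51).

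**Figure D5:**
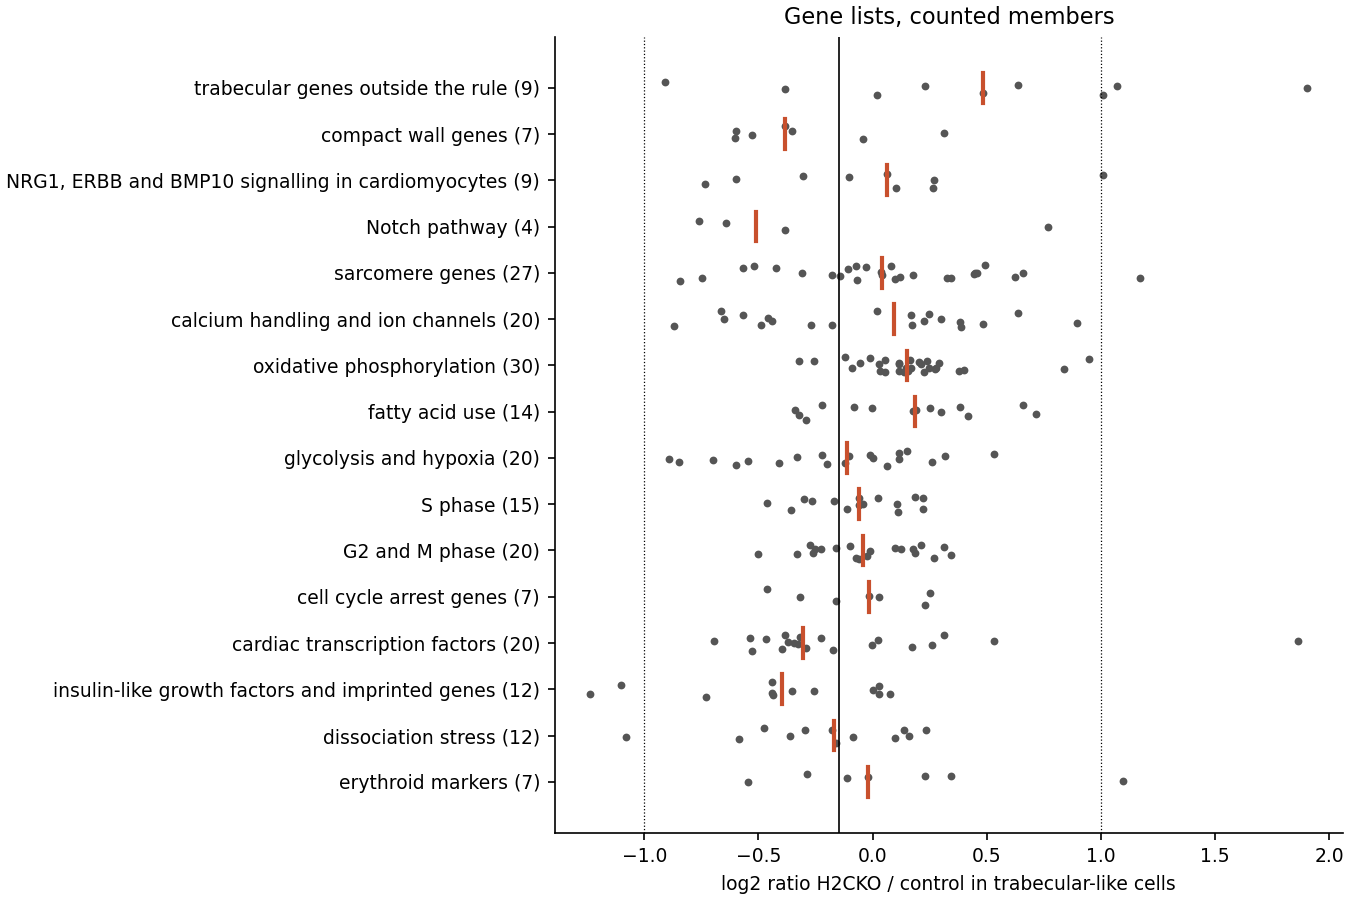
Log2 ratio of H2CKO to control in trabecular-like cells (x axis) for the counted genes of 16 lists with at least 4 counted members, one list a row; dots are genes, orange-red bars list medians, the black line the median of all genes (−0.15) and dotted lines 2-fold. The median of the trabecular genes (0.48) lies furthest to the right, and most dots of every list lie between the dotted lines. That median includes Bmp10 and Mybphl, which were counted only through their levels in H2CKO.

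Genes of contraction and energy use showed few differences past 2-fold. The 27 counted sarcomere genes had a median of 0.04, with 1 past 2-fold higher and none past 2-fold lower, beside 0.345% and 0.599% of all counted genes. Myh6, the fast myosin heavy chain, had 1236 and 687 CPM (−0.84, against −1.14 in the other Myl2-high cells), and Myh7, the slow chain, 2581 and 3549.6 (0.46, against 0.15); both are genes of the rule, as is Myl2, the ventricular light chain (8542 and 12205). None of 20 calcium handling and channel genes was past 2-fold (median 0.10), nor any of 30 oxidative phosphorylation genes (0.15), 14 of fatty acid use (0.18) or 20 of glycolysis and hypoxia (−0.11). Gja1 had 267 and 144 CPM (−0.87) and Kcnk3 70.6 and 83.2 (0.22).

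Cell cycle genes lay near the median of all genes. None of 15 S phase genes (median −0.06), 20 G2 and M phase genes (−0.04) or 7 arrest genes (−0.01) was past 2-fold. Mki67 had 152 (146 to 159) and 119.9 (115 to 125.0) CPM, a log2 ratio of −0.33. Of 20 cardiac transcription factors, 1 was past 2-fold higher (Irx2, counted only through H2CKO) and none lower (list median −0.31). Hand1 had 113 (107 to 118) and 91.2 (87.0 to 95.6) (−0.29) and Tbx5 46.2 and 47.0 (0.02). Of 12 growth factor and imprinted genes 2 fell (Igf2 and Peg3, list median −0.40), and of 12 dissociation stress genes 1 fell (Atf3, list median −0.17), beside 0.345% higher and 0.599% lower over all counted genes.

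Markers of other cell types were compared in the same cells, and their part in the results was not tested. No endothelial marker was counted; the 13 together stood at 28.5 and 45.6 CPM in trabecular-like and 45.5 and 44.4 in the other Myl2-high cells, and Cldn5 was at 0 in control trabecular-like cells. Mesenchymal markers stood at 516 and 280.3, against 617 and 249, with 1 of 12 counted in trabecular-like cells (Vcan, a matrix proteoglycan, −0.76) and not past 2-fold. In the other Myl2-high cells 6 of the 12 were counted and all 6 were past 2-fold lower in H2CKO (list median −1.42), beside 0.812% of all genes counted there. Only 1 of the 12 was counted when the 2 kinds of cell were compared within H2CKO. Most of the 6 were therefore counted only through the control, where they are high. Epicardial markers stood at 146 and 141, with 3 of 9 counted and none past 2-fold. Erythroid markers, which come with free globin RNA, stood at 3298 and 3714, against 3329.5 and 4227, with 7 counted and 1 past 2-fold higher (Hbb-bs), beside 0.345% of all counted genes. None of 3 counted atrial markers was past 2-fold. Outflow tract and atrioventricular canal markers, 5 of which the rule used, stood at 29.8 and 41.1, with none counted.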

How the data were processed

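The authors deposited 1 table of whole UMI counts per gene and barcode for each of the 2 libraries and a table of embedding coordinates, which are scores used here only to tell which barcodes the authors kept. Counts came from Cell Ranger 5.0.1 and Seurat 4 was used, on GRCm38.p6, per the submitters' processing notes. How reads of near-identical gene copies were counted is not given in the sources used here. UMIs were summed over the chosen cells of a library and expressed per 1000000 (CPM) of their total, which was 13870818 UMIs in control and 18864611 in H2CKO trabecular-like cells; all 22401 features entered the totals, 22285 with a GENCODE symbol. Intervals are exact Poisson for levels, exact conditional for ratios and Clopper-Pearson for shares. Log2 ratios were taken after adding 5 CPM. Genes are named by a fixed rule: the 10 highest and 10 lowest genotype ratios, the 12 genes each way that set the cells apart in both libraries, the 5 highest and lowest differences of ratios, and from each of 22 gene lists the members past 2-fold and those with the most UMIs; others were chosen after their values were seen, and 2 genes that the rule names are not reported here. The members and lists were chosen with earlier results of these data known. Doublets were not removed, except in an alternative with Scrublet in scanpy 1.11.5. The ratio and count steps were tested on simulated data. Python 3.11.15, numpy 2.4.6, scipy 1.17.1 and pandas 2.3.3 were used.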

Additional observations from a re-analysis of the deposited data

Results flagged for a closer look

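Barcodes outside the authors' embedding that met the other terms of the rule numbered 634 in the control and 161 in H2CKO, and they entered no comparison above. They were shallower, with a median of 444 and 910 genes. Nppa stood at 9335 CPM in those of H2CKO and 2714 in those of the control. In the haemoglobin-rich barcodes it stood at 67.4 and 21.2. The barcodes outside the embedding that met the other terms come from the same 2 libraries. At their depth a few UMIs meet the trabecular term, so they give no separate check of the comparisons. Bmp10 had 39.9 and 12.1 CPM in these barcodes of H2CKO and the control, Slit2 33.2 and 11.6, and Hey2 27.2 and 34.8. The difference was not tested.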

How the results depend on the processing

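No paired analysis was possible because each group has 1 library, and no library could be left out. The count of genes past 2-fold higher in H2CKO trabecular-like cells (19) was 30 with the trabecular term at 2000 CPM, 6 with a filter of 100 CPM, 29 with no filter, 33 after centring and 30 after removing the trend with gene span. The count of lower genes (33) was 51 with cells thinned to 5000 UMIs, 62 at 2000 CPM, 58 with a pseudocount of 1, 14 with the filter of 100, 16 after centring and 18 with the span trend taken out. The difference in the share of Myl2-high cells (−6.36 points) was −8.98 over barcodes of 500 genes or more whose mitochondrial share was 10% or less, −1.83 and −9.70 with the trabecular term at 2000 and 500 CPM, and reversed to 3.41 with all embedding cells as the denominator. Of genes past 2-fold against the other Myl2-high cells in both libraries, 2 were higher and 3 lower with the filter of 100, and 11 were lower with no filter. Of genes whose genotype ratio differed between the 2 kinds of cell, 1 was past 2-fold with the filter of 100 and 5 were found with no filter. The log2 ratio of Hand2 moved to 0.14 by centring alone. The causes were not tested, except that centring and the filters act by construction. Of 19 alternatives that gave a value, 15 were planned and 4 were chosen after seeing the data; of the 48 genes followed through 18 of them, none past 2-fold changed sign, and Itga6, Tnni2, Ier2, Tnnt2 and Actc1, all with log2 ratios near 0, did so in 1 or 2. Of the 864 values, 449 lay outside the counting interval of the reported ratio. Bmp10 stayed past 2-fold in 13 of 18 alternatives. A minimum of 5% on the cardiomyocyte genes could not be fitted, since it left 1 control and 9 H2CKO cells. Scrublet's top 5% of scores held 3.02% of control and 3.44% of H2CKO trabecular-like cells.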
